A study of Mus musculus with 5 samples.

Results

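Chromosome 10 carries 1925 of the 30398 RAP1 peaks in the deposited list, 6.33% of them. They were selected by chromosome alone, and the chromosome was picked because its peak density was already known to lie above the autosome average. Its density, its densest bin and its distal group are therefore given as descriptions, with no test. RAP1 was immunoprecipitated from cultures of mouse embryonic fibroblasts grown with puromycin. SV40 large T had immortalised the cells; this viral antigen inactivates p53 and the retinoblastoma protein. The 5 libraries are 2 from wild-type lines (WT), 2 from lines without Rap1 (RAP1_ko) and 1 input prepared without antibody; per the labels all antibody libraries come from a mixed background. The labels do not say which allele or method removed Rap1, nor the age or number of embryos behind each line.

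RAP1 belongs to shelterin, the protein complex that caps chromosome ends. It reaches the TTAGGG repeats of telomeres by binding TRF2, and it has also been mapped to sites inside chromosomes, near and within genes. Mouse chromosome 10 is telocentric, so its centromere lies at the start of the coordinates, and the far end is called distal here. All positions are on mm9. Gene annotation and sequence of that build were not used, so peaks are given by position, without a gene, exon or UTR, and without their sequence.

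For each peak the list counts reads of 2 sets, called positive and negative, that are pooled over libraries. Following the study's stated design, positive was taken as wild-type and negative as Rap1-deleted. No value belongs to a single library, so there is no spread between replicates, and the error given is counting error only. The depth of the libraries is unknown here. Negative reads were multiplied by 3.32, the factor contained in the deposited folds, before any ratio was taken. Ratios use the reads in each peak's forward and reverse strand windows unless stated otherwise, because the whole-peak column lists 8 negative reads over all of chromosome 10 while the strand windows hold 2793.

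RAP1 peaks occurred at 15.2 per Mb on chromosome 10 (exact Poisson 95% interval 14.5 to 15.9, n = 1925 peaks over 126.8 Mb). That is 1.23 times the autosome median of 12.3 per Mb and the fourth highest value of the 19 autosomes, after chromosome 11 at 18.4, chromosome 19 at 17.5 and chromosome 15 at 15.9 per Mb. The interval assumes evenly scattered peaks and is too narrow, since the variance of the 1 Mb bin counts is 4.72 times their mean. The RefSeq gene table of GRCm38 lists 1001 protein-coding genes on chromosome 10, which places it 11th among the autosomes, whose median is 1043.

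The other peak-dense chromosomes carried more control signal than chromosome 10. Negative strand reads stood at 346 of its 1925 peaks, 18.0% (exact Clopper-Pearson 95% interval 16.3 to 19.8), against 18.8% of the whole list. The share was 25.6% on chromosome 11, 22.2% on chromosome 19 and 22.2% on chromosome 15. Chromosome 10 had the median share of the autosomes, which ranged from 12.7% to 25.6%.

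Summed over chromosome 10, 58135 positive stood against 2793 negative strand reads, a scaled ratio of 6.27 (exact conditional binomial 95% interval 6.04 to 6.51). It ranks 9th among the 19 autosomes, near their median of 6.18. The ratio was 3.88 (3.78 to 3.99) on chromosome 11, 4.90 (4.68 to 5.13) on chromosome 19 and 4.69 (4.52 to 4.86) on chromosome 15, and none of these intervals reaches that of chromosome 10. Chromosomes 3 and 17, the next in density, had 5.21 (5.05 to 5.39) and 3.90 (3.76 to 4.05). Chromosome 9, the last of the 7 autosomes above 13 peaks per Mb, had 5.995 (5.76 to 6.24), an interval that overlaps that of chromosome 10. Reads of 1 peak are not independent, so these intervals are too narrow, and without values per library the differences between chromosomes were not tested.

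**Figure D1:**
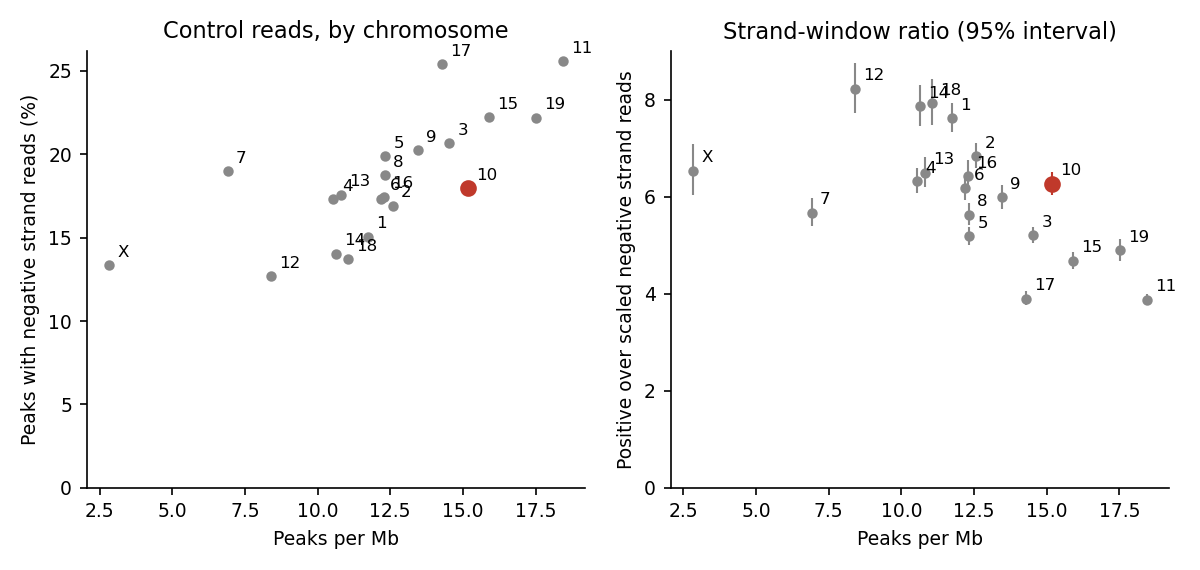
Peaks per Mb (x axis) against the percentage of peaks with negative strand reads (left) and against the ratio of positive to scaled negative strand reads (right, bars are 95% counting intervals), 1 point per chromosome with its name, chromosome 10 in red. Chromosome 10 lies at 15.2 peaks per Mb with 18.0% and a ratio of 6.27, whereas chromosomes 11, 15 and 19 have 22.2% to 25.6% and ratios from 3.88 to 4.90.

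In mean read number and spacing chromosome 10 was neither the highest nor the lowest of the autosomes. Its peaks hold a mean of 30.6 positive reads, sixth among autosomes that span 29.01 to 31.5. The median is 28 reads, with an interquartile range of 24 to 34 and a full range of 16 to 106. The median gap between neighbours is 34.2 kb, against an autosome median of 39.6 kb, and 20.5% of the 1924 neighbouring pairs lie under 10 kb apart, against a median of 19.4%. A false discovery rate of 0.01 or less in the authors' deposited table was given to 1133 peaks (58.9%), against 55.9% of the whole list.

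Peak length on this chromosome mostly equals the distance between the forward and the reverse read pile. In 1586 peaks (82.4%) the deposited length equals the deposited distance from the forward to the reverse mode, and on the other chromosomes the share is 82.2%. In ChIP-seq of sheared DNA, forward reads gather on one side of a bound site and reverse reads on the other, and the distance between the piles follows the fragment length. The median length is 58 bp, the highest autosome median, though autosomes run only from 54 to 58 bp. Peaks of 29 to 31 bp number 338 (17.6%), against 17.8% of the list, and 206 peaks (10.7%) are 120 bp or longer. Among those 206 long peaks, 62.1% (55.1 to 68.8) have the reverse pile upstream of the forward pile. On the other chromosomes it is 64.8% of 2983 long peaks. Of the 1719 chromosome 10 peaks under 120 bp, the reverse pile lies upstream in 1.

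Control reads were most frequent at the short peaks. Of the 338 peaks of 29 to 31 bp, 93 (27.5%, 22.8 to 32.6) have negative strand reads and the summed ratio is 3.67 (3.41 to 3.95). The long peaks have such reads in 43 of 206 (20.9%, 15.5 to 27.1), with a ratio of 7.28 (6.52 to 8.15). The 1381 peaks of middle length have them in 15.2% (13.4 to 17.2), with a ratio of 7.24 (6.90 to 7.61) that overlaps that of the long peaks. On the other chromosomes the short peaks were also lowest, with 3.16 (3.11 to 3.22). There the long peaks gave 5.59 (5.44 to 5.73), below the 7.003 (6.92 to 7.09) of middle length. The part of PCR copies in the reads of short peaks was not tested.

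Along the chromosome, peak numbers varied from bin to bin. The 127 bins of 1 Mb hold a median of 14 peaks (interquartile range 9 to 20, full range 2 to 43). Only 8 bins reach 30 peaks, 6.30% of the chromosome's bins against 4.18% of the 2582 bins over all chromosomes but Y, and together they hold 295 peaks (15.3%). They lie at 76 to 77, 79 to 81, 82 to 83, 120 to 121 and 126 to 129 Mb. The sparsest are the bins from 103 to 104 and 104 to 105 Mb, with 2 and 3 peaks. A long poor stretch runs from 45 to 53 Mb, where 8 bins hold 57 peaks.

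**Figure D2:**
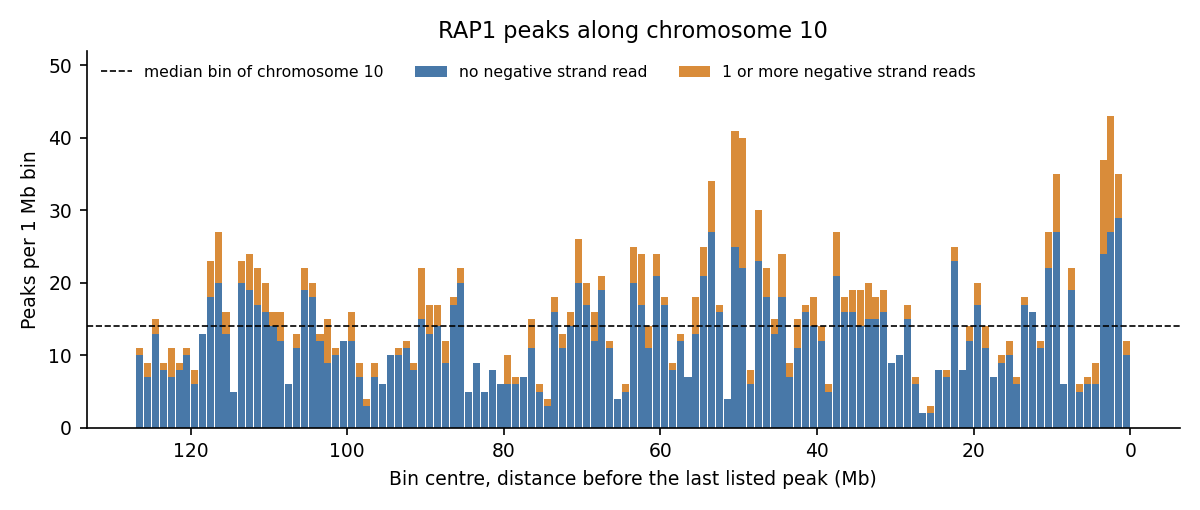
Peaks per 1 Mb bin of chromosome 10 (y axis) by the distance of the bin centre from the last listed peak in Mb (x axis, distal end on the right), divided into peaks without and with negative strand reads; the dashed line is the median bin of 14 peaks. The tallest bars are the bins of 43, 41 and 40 peaks.

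Denser bins held a larger share of peaks with control reads and lower ratios. In bins of 1 to 14 peaks, 70 of 580 peaks (12.1%, 9.53 to 15) have negative strand reads and the ratio is 9.82 (9.002 to 10.7). In bins of 15 to 29 peaks the share is 17.6% (15.4 to 20.1) and the ratio 6.12 (5.81 to 6.44). In the 8 bins of 30 or more, 91 of 295 peaks (30.8%, 25.6 to 36.5) have such reads and the ratio is 4.01 (3.72 to 4.34). Positive reads moved the same way as the bin counts, with means of 29.4, 30.6 and 32.8 reads per peak in the 3 classes. The part of read depth in these counts was not tested.

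The other chromosomes showed the same order, with shares of 13.2%, 20.7% and 30.5% and ratios of 8.10 (7.96 to 8.25), 5.33 (5.26 to 5.397) and 3.49 (3.41 to 3.56). Chromosome 10 had the higher ratio in each of the 3 classes, and the counting intervals, which are too narrow, do not overlap in any of them. The other chromosomes are pooled in that comparison. Set against the autosomes singly, chromosome 10 ranks 9th of 19 in its summed ratio. Its shares lie within or close to those of the other chromosomes: only in the middle class is the other value, 20.7%, outside the chromosome 10 interval.

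**Figure D3:**
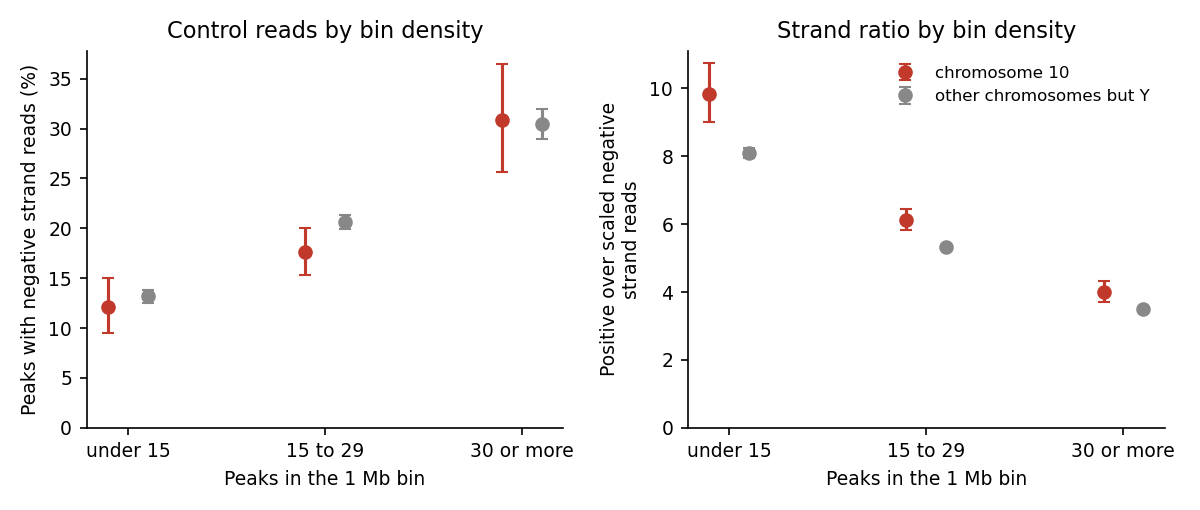
Percentage of peaks with negative strand reads (left) and ratio of positive to scaled negative strand reads (right) by the number of peaks in the 1 Mb bin, for chromosome 10 (red) and the other chromosomes except Y (grey); points are the class values and bars 95% counting intervals. The share rises from 12.1% to 30.8% on chromosome 10 while the ratio falls from 9.82 to 4.01.

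The bin from 127.0 to 128.0 Mb is the densest of chromosome 10, with 43 peaks, 2.84 times the chromosome's mean bin. Over all chromosomes but Y, 10 of the 2582 bins hold 43 or more, and the largest holds 108. Its fixed edges divide a longer stretch. Moved by 0.5 Mb, the window from 127.5 to 128.5 Mb holds 58 peaks and the one from 126.5 to 127.5 Mb holds 42. The 3 bins from 126 to 129 Mb together hold 115 peaks.

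Within the dense bin the peaks are not evenly placed. No peak lies between 127.2 and 127.4 Mb, inside a gap of 328.1 kb, and every 0.1 Mb step from 127.4 Mb onward holds 5 to 7. The median gap is 11.8 kb and 20 of 42 neighbouring pairs (47.6%) are under 10 kb apart. The first peak inside the bin, from 127006649 to 127006715, holds 46 positive reads, and the last peak before it, from 126975129 to 126975157, holds 48. At the distal edge, the last peak inside ends at 127994089 with 25 positive reads and the next starts at 128031022 with 29. At each edge the nearest peak on either side thus has a similar read number. The gaps across the edges, 31.5 and 36.9 kb, are wider than the median gap of 11.8 kb.

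In the dense bin 16 of 43 peaks (37.2%, 23.0 to 53.3) have negative strand reads. Its 1456 positive against 101 negative strand reads give 4.34 (3.55 to 5.37). Across the distal 4 bins the ratio rose towards the end. The rise began from a low first bin: just before it, from 125 to 126 Mb, the ratio was 5.01 (3.03 to 8.89). The ratio was then 2.501 (2.10 to 3.00) from 126 to 127 Mb, 4.34 in the dense bin and 9.60 (6.86 to 13.9) from 128.0 to 129 Mb. The last bin, with 12 peaks, gave 21.6 (9.84 to 59.1) from only 6 negative reads. In the first of these bins a single group of 4 peaks, from 126505156 to 126509309, holds 48 of 141 negative reads, and without it the ratio of that bin is 3.16 (2.56 to 3.96).

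The most read-rich peaks of the dense bin are moderate. The peak from 127138859 to 127138930, just before the long gap, has 65 positive reads and no negative read. Its positive reads are at least 6.53-fold higher. That bound and the others given here set the positive reads against a floor of 3 negative reads, or 9.96 after scaling. A 30 bp peak from 127494102 to 127494131 has 60 positive reads, at least 6.02-fold higher, and the peak from 127984820 to 127984881 has 52, at least 5.22-fold higher. The last of these, ranked 240, is the best-ranked of the bin. A 29 bp peak from 127078921 to 127078949 has 49 positive reads and no negative read.

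Control reads set a further peak of 29 bp, from 127895505 to 127895533, apart from these. It has 52 positive and 3 negative reads over the peak, and 40 against 9 in the strand windows, a ratio of 1.34 (0.639 to 3.14). In the authors' deposited table its log2 fold of 2.27 is the lowest of all 30398, and its rank is 30312. In the bin the most negative strand reads, 17, stand at the peak from 127615554 to 127615618, with 35 positive strand reads and a ratio of 0.620 (0.338 to 1.18). The next 2, from 127984414 to 127984442 and from 127780521 to 127780584, have 11 each and ratios of 0.657 (0.310 to 1.49) and 0.739 (0.355 to 1.65). All 4 intervals include 1, so that positive and scaled negative strand-window reads were not distinguishable at these peaks. For the peak from 127895505 the whole-peak columns give 5.22 (1.69 to 26.1) instead, an interval above 1.

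**Figure D4:**
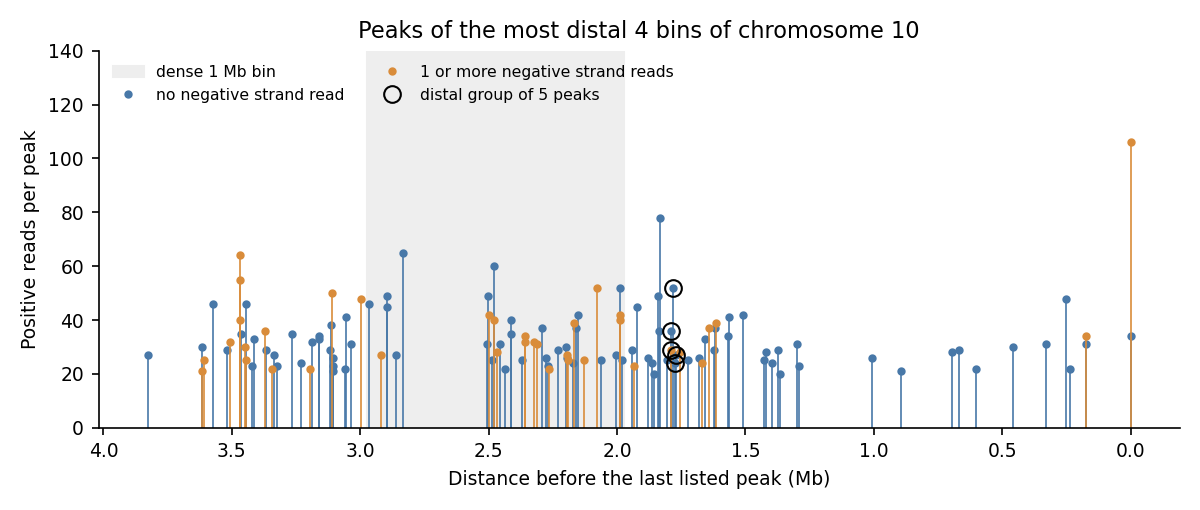
Positive reads per peak (y axis) for each peak of the most distal 4 bins of chromosome 10, by distance before the last listed peak in Mb (x axis), in blue without and in orange with negative strand reads; grey marks the dense bin and circles the distal group. The dense bin reaches 65 reads, and the tallest stem, with 106 reads, is the penultimate peak of the chromosome.

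The distal group consists of 5 peaks from 128182258 to 128203797, a span of 21.5 kb, and its first peak lies 1791 kb before the end of the last listed peak. In order along the chromosome they hold 36, 29, 52, 24 and 27 positive reads and are 30, 79, 205, 47 and 65 bp long. Negative reads stand at 1 of the 5 (20%, 0.505 to 71.6), near the 18.0% of chromosome 10. It is the second peak, from 128185788 to 128185866, with 4 on the reverse strand and a ratio of 2.18 (0.767 to 8.55). The other 4 have none, with bounds from at least 2.41-fold to at least 5.22-fold higher. The widest of them, from 128193546 to 128193750, gives the highest bound.

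Summed, the group has 172 positive and 4 negative strand reads, a ratio of 12.95 (4.97 to 48.1). Its interval lies above that of the bin from 126 to 127 Mb and overlaps that of the dense bin. The membership depends on the joining distance of 10 kb. The nearest peaks outside lie 14.7 kb before and 13.6 kb after, with 25 and 28 positive reads. Joining at 20 kb gives 7 peaks and a ratio of 9.68 (4.62 to 24.4), and joining at 50 kb gives 31 peaks and 5.68 (4.33 to 7.59). Joining at 5 kb divides the group into 2 pairs and a single peak, and the first pair gives 4.89 (1.82 to 18.5).

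Joined at 10 kb, the 1925 peaks fell into 1530 groups. Single peaks make up 1232 of them, while 15 hold 4 or more peaks and 6 hold 5 or more. Of those 15, 6 lie between 126 and 129 Mb, around the dense bin, where 115 of the 1925 peaks lie. Joining by distance gives more such groups in dense stretches by construction. The largest group holds 8 peaks from 119889188 to 119917405, with 22 to 33 positive reads each and 1 negative strand read against 229 positive (ratio 69.0, interval 12.3 to 2736). A group of 5 peaks from 119856943 to 119865071 lies 24.1 kb before it and gives 8.47 (4.23 to 19.9).

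A group of 6 from 126857735 to 126869688 gives 13.4 (5.14 to 49.7). Another group of 6, from 80641816 to 80657166, gives 5.96 (3.18 to 12.6), and 5 peaks from 79615972 to 79633371 give 4.44 (2.41 to 9.06). The intervals of these 6 groups rest on 1 to 11 negative reads each and overlap, except that the group of 8 lies above the group at 79615972. Against them, the group of 4 peaks around 126505156 has 194 positive and 48 negative strand reads, a ratio of 1.22 (0.884 to 1.71).

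Beside the dense distal stretch, the bins from 79 to 81 Mb hold 81 peaks. Among the 8 bins of 30 or more peaks they have the largest shares of peaks with control reads. The lowest ratio of those 8 bins is instead the 2.501 of the bin from 126 to 127 Mb. From 79 to 81 Mb negative strand reads stand at 34 of the 81 peaks (42.0%, 31.1 to 53.5), and the ratio is 3.34 (2.93 to 3.82). The poor stretch from 45 to 53 Mb has negative strand reads at 5 of 57 peaks (8.77%, 2.91 to 19.3), an interval that includes the 18.0% of chromosome 10. Its ratio is 12.4 (9.03 to 17.4), which overlaps the 9.82 (9.002 to 10.7) of all bins under 15 peaks. No peak there has 50 positive reads (0%, 0 to 6.27), an interval that includes the 4.16% of chromosome 10.

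The chromosome ends themselves are not the densest parts. Counted back from the last listed peak, the distal 5 Mb hold 136 peaks or 27.2 per Mb, and the proximal 5 Mb hold 57 or 11.4 per Mb. In the last 1 Mb there are 12 peaks, against 11 in the first 1 Mb. Most peaks of the distal 5 Mb lie more than 1 Mb from the end. The last peak, from 129973725 to 129973758, has 34 positive reads and no negative read.

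Just before it, 0.318 kb away, lies the most read-rich peak of the chromosome, from 129973377 to 129973406. This 30 bp region ranks 65 in the whole list and has 106 positive reads against 5 negative, or 6.39 (2.65 to 20.1). All 5 negative reads lie on the forward strand. Of the 1925 peaks, 2 hold 100 or more positive reads; the other, from 79175384 to 79175490, has 104 and no negative read, at least 10.4-fold higher, with rank 31.

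Strong peaks, here those with 50 or more positive reads, number 80 (4.16%, 3.31 to 5.15), an interval that includes the 4.23% of the whole list. They spread over 51 of the 127 bins, with 5 at most in one, from 79 to 80 Mb. Many are long: their median length is 88 bp, against 57 bp for the other peaks, and 34 of the 80 are 120 bp or longer. In 63 of them no single window reaches 50 reads. Negative strand reads stand at 29 of the 80 (36.2%, 25.8 to 47.8), against 17.2% (15.5 to 19.0) of the peaks with fewer positive reads.

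The ratio was 4.91 (4.36 to 5.55) for the strong peaks and 6.43 (6.17 to 6.69) for the others. The strong peaks of the other chromosomes have such reads in 42.7% and a ratio of 4.69 (4.55 to 4.83), which overlaps the chromosome 10 value. After the 2 peaks above 100 reads come the peaks from 114760486 to 114760605 with 81 positive reads, from 18158109 to 18158194 with 78 and from 128142602 to 128142826 with 78. The first and the third have no negative read, at least 8.13-fold and 7.83-fold higher, and both are uneven between strands, with 59 forward and 22 reverse reads in the first and 20 and 58 in the third. The second has 15 negative strand reads and a ratio of 1.57 (0.894 to 2.93).

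The 15 best-ranked peaks of chromosome 10 hold ranks 16 to 158 in the list and each lies in a different bin. Of the list's best 100 peaks, 6 are on chromosome 10 (6%, 2.23 to 12.6), and of the best 1000, 62 (6.20%, 4.79 to 7.88), near the 6.33% it has of all peaks. The 15 have 51 to 106 positive reads and are 30 to 107 bp long, and none lies in the dense bin. All 15 have a window of 50 or more reads, as do only 17 peaks of the chromosome. Rank and window come from the same reads, so the window is no separate support for the rank.

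The best-ranked, a 30 bp peak from 89544566 to 89544595, has 75 positive reads, 37 forward and 34 reverse in the strand windows, and no negative read, at least 7.53-fold higher. It is a single peak at the joining distance of 10 kb, 12.7 kb from the peak before and 300.7 kb from the peak after. The second, from 39978490 to 39978519 with rank 30, is also 30 bp long. It has 77 positive reads, no negative read over the peak but 12 in the strand windows, and a ratio of 1.71 (0.916 to 3.46).

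Negative strand reads stand at 6 of the 15 best-ranked peaks, against 18.0% of all chromosome 10 peaks and 36.2% of the strong peaks. The other 9 have no negative read in any column, with bounds from 5.12-fold to 10.4-fold. Examples are the peak from 95361285 to 95361352 with 59 positive reads, the peak from 36792773 to 36792855 with 56 and the peak from 33973481 to 33973555 with 55. The others without negative reads are from 83239364 to 83239438, 90446483 to 90446570, 43826424 to 43826506 and 107051881 to 107051919, with 51 or 52 positive reads each.

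Rank and control reads part in the remaining peaks. The peak from 66327526 to 66327588 has 74 positive and 6 negative strand reads (3.71, 1.63 to 10.5). Those from 86168765 to 86168833 and from 30530902 to 30530989 have ratios of 2.496 (1.14 to 6.48) and 2.18 (1.04 to 5.30). The peak from 21862270 to 21862299, rank 158 and 30 bp long, has 62 positive reads over the peak and 0 in the whole-peak negative column. The strand windows set 49 against 23 reads, and the interval of the ratio of 0.642 (0.384 to 1.104) includes 1.

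Over the 346 chromosome 10 peaks with negative strand reads, the ratio has a median of 1.42 (interquartile range 0.837 to 2.61, full range 0.179 to 15.4). Its interval lies wholly above 1 at 76 of them (22.0%, 17.7 to 26.7), against 20.3% over the list, and wholly under 1 at 27 (7.80%, 5.21 to 11.2), against 8.27%. At 114 (32.9%, 28.0 to 38.2) the ratio is 1 or less, against 35.1%. The authors listed these peaks from the same reads, and nothing on binding is read from the counts. The shares on chromosome 10 lie near those of the list.

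Control reads at a peak mostly came from 1 strand. Of the 346 peaks, 161 have them on the forward strand only, 151 on the reverse strand only and 34 on both. The whole list is alike, with 2520, 2542 and 645 of its 5707 peaks with negative strand reads. On chromosome 10 the highest negative window lies inside the peak for 91 of 195 forward entries (46.7%) and 88 of 185 reverse entries (47.6%). Over the list the shares are 52.2% and 49.0%. The median number on chromosome 10 is 7 negative reads, 21 peaks have 1 and 22 have 20 or more. These 22 peaks hold 19.2% of the chromosome's negative strand reads.

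The peak with the most negative reads, from 111362789 to 111362817, has 22 positive and 37 negative strand reads, a ratio of 0.179 (0.101 to 0.312). The next are from 79708402 to 79708490 with 27 against 33 (0.246, 0.143 to 0.423), and from 40618748 to 40618791 with 24 against 30 (0.241, 0.135 to 0.426). Then follow the peaks from 92623150 to 92623259 with 24 against 28 (0.258, 0.143 to 0.462) and from 61912552 to 61912674 with 27 against 27 (0.301, 0.170 to 0.534). In the strand windows all 5 lie below 1 with their whole interval, so negative reads exceed positive reads in those windows after scaling. The whole-peak column instead gives 0 negative reads at all 5, and the authors' deposited log2 folds are positive, from 4.46 to 4.86. These 5 peaks were picked for their negative strand reads. None of them is in the dense bin or the distal group.

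**Figure D5:**
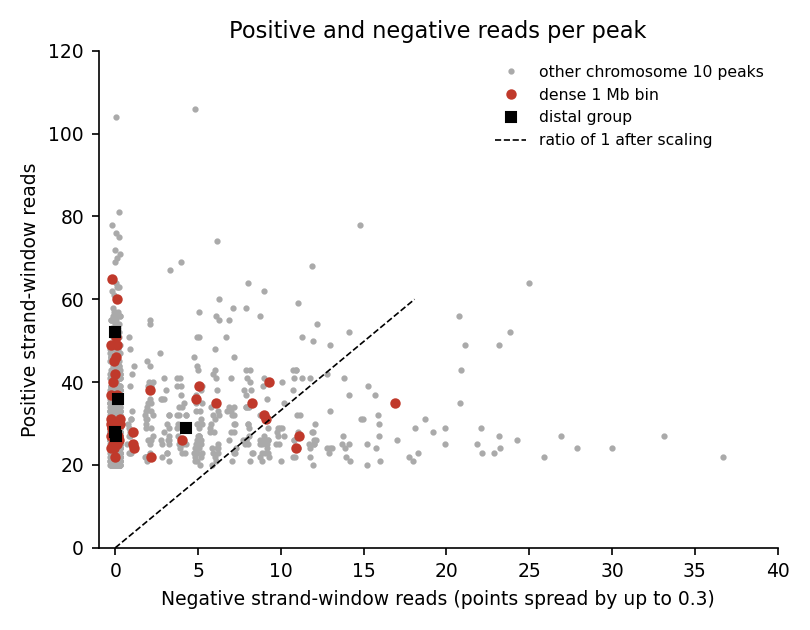
Positive (y axis) against negative (x axis, points spread sideways by up to 0.3) strand-window reads for each of the 1925 chromosome 10 peaks; red marks the dense bin, black squares the distal group, and the dashed line a ratio of 1 after scaling. Most points lie at 0 negative reads; the peak farthest to the right has 37.

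The longest peaks are unlike the best-ranked. They run from 93396535 to 93397053 (519 bp), from 82153039 to 82153552 (514 bp) and from 5057245 to 5057746 (502 bp). They hold 63, 62 and 72 positive reads and no negative read, at least 6.33-fold, 6.22-fold and 7.23-fold higher, and in each the reverse pile lies upstream of the forward pile, so the forward to reverse distances are -183, -267 and -5 bp. The first peak of the chromosome, from 3131592 to 3131651, has 27 positive reads and no negative read.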

How the data were processed

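RAP1 chromatin immunoprecipitates from 2 wild-type and 2 Rap1-deleted fibroblast lines and 1 input were described by 1 list of 30398 peaks. Positions are on mm9, per the submitters' processing notes. The sources used here give no aligner, peak caller, filter or library depth. The authors deposited pooled read counts per peak and per strand window, the highest window of reads (a coverage signal), log2 folds and a false discovery rate (a q-value). The scale of 3.32 was solved from the deposited log2 folds, and 140 of 141 solvable entries returned it within 0.001. Which libraries form each read set, and whether the input was used, is not stated by the file headers.

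Peaks were taken from chromosome 10 and binned by start in 1 Mb. Peaks up to 10 kb apart formed a group. A peak without negative reads was set against a floor of 3 reads. Intervals are exact at 95%, and those of ratios were checked on simulated data with independent reads. That check cannot show how far the intervals are too narrow where reads of 1 peak are not independent. Named peaks are the 15 best-ranked, all of the distal group, the 5 with most positive and 3 with most negative reads in the dense bin, the 5 with most negative reads, the 3 longest, the first and last, and the 5 largest groups; the other named peaks and groups, and the peaks at the edges, were chosen after their values were seen, as was the ratio without the group richest in negative reads. Members, windows and rules were chosen with earlier results of these data known. Python 3.11.15, pandas 2.3.3, scipy 1.17.1 and matplotlib 3.10.9 were used.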

Additional observations from a re-analysis of the deposited data

How the results depend on the processing

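Chromosome 10 held ranks 3 to 5 among the 19 autosomes in density under every alternative tried, and its density over the autosome median ran from 1.199 in the better-ranked 10% of the list to 1.29 in peaks with a false discovery rate of 0.01 or less. Fewer peaks lower the density by construction: 7.95 per Mb in the better-ranked 50%, 1.54 in the better-ranked 10%, 8.93 at a false discovery rate of 0.01 or less and 12.4 without peaks that have negative strand reads. The dense bin likewise held 24, 28 and 27 peaks in the better-ranked 50%, at that false discovery rate and without negative strand reads. It was the fullest bin of the chromosome in the first pair, and second to a bin of 29 in the last. Joined within 1 kb it held 38 against 40 in the fullest bin, and in the better-ranked 10% of the list it held 4 and came eighth. The largest piece of the distal group held 2 peaks at a gap of 5 kb, and the group held 31 at 50 kb. The strand ratio was 6.86 in the better-ranked 50% and 6.91 at a false discovery rate of 0.01 or less; the cause was not tested. From the whole-peak columns it was 2215 (1124 to 5132), which rests on 8 negative reads. The share of strong peaks was 13.5% at a minimum of 40 reads, 1.66% at 60 and 0.883% by the highest window, against 13.02%, 1.59% and 0.704% of the list. The ratio of the bin before the dense one was 3.16 without its group richest in negative reads, an alternative chosen after seeing the data. No paired analysis was possible because the list pools the libraries and has no column for any of them; leaving out a library was not possible for the same reason. Depth limits peaks without negative reads: their bounds restate the positive reads.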

Other observations

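Forward and reverse positive reads were close to balanced on chromosome 10. Of the 1925 peaks, 836 have more forward, 896 more reverse and 193 equal numbers in the strand windows. In 1847 (95.9%) the larger is at most 2 times the smaller, against 95.3% of the whole list. Among the strong peaks this holds for 66 of 80 (82.5%, 72.4 to 90.1), against 84.7% of the strong peaks on the other chromosomes. A strand window at 10 reads, the lowest number in the list, occurs at 528 peaks (27.4%), against 29.3% on the other chromosomes. This minimum limits how uneven a peak with few reads can be.

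The widest gap without a peak on chromosome 10 runs for 812.8 kb from 118677866 to 119490669, and it ends 366 kb before the pair of groups near 119.9 Mb. The next runs for 807.1 kb from 6571858 to 7378996. A gap of 729.1 kb and one of 642.4 kb follow each other from 32167222 to 33538793, with a single peak between them. Altogether 139 of 1924 gaps (7.22%) exceed 200 kb.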
